A study of Mus musculus with 12 samples.

Results

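The effect of a sugar drink on gene expression in the mouse ileum, the last stretch of the small intestine, was measured over both of the diets on which it was given. All 12 libraries of the series entered: the 6 from mice given the sugar drink, which were the NF_Sugar and HF_Sugar groups, against the 6 from mice given plain water, which were the NF and HF groups, with the fat content of the diet as a covariate. NF mice ate a normal-fat diet with plain water, NF_Sugar mice the same diet with the sugar drink, HF mice a high-fat diet with 60% of its energy from fat and plain water, and HF_Sugar mice that high-fat diet with the sugar drink. The drink held 23% (w/v) sugar and, by the study's methods, was a sucrose solution. All animals were wild-type C57BL/6 mice, a common inbred strain, aged 16 weeks after 10 weeks on their diet, and each library came from RNA of 1 mouse, with 3 mice per group. With 1 animal per library, the spread between replicates is a spread between mice.

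Sucrose cannot be absorbed as such. On the brush border of the intestinal cells sucrase-isomaltase splits it into glucose and fructose, glucose enters the cell with sodium through SGLT1 and fructose passively through GLUT5, and fructose is then phosphorylated by ketohexokinase and broken down, partly within the intestine itself. Sugar inside these cells is known to act on transcription through the carbohydrate-response factor ChREBP (Mlxipl) and its partner Mlx. The same epithelium faces dense populations of microbes in the ileum and secretes antimicrobial proteins towards them.

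Values are RPKM (reads per kilobase of transcript, scaled to the number of mapped reads), and differences are in log2(RPKM + 1) after scaling between libraries, sugar minus water, with their standard error (SE). The pseudocount of 1 makes these differences smaller than the true log2 ratio for genes at low RPKM. Recovered depth ran from 15.3 to 39.0 M reads per library, and 27913 to 37295 genes had a value above 0. A principal component analysis put 40.1% of the variance on an axis that set 4 libraries apart. They came 1 from each group (NF 2, NF_Sugar 1, HF 2 and HF_Sugar 2), so that each drink had 2 of them. In 749 genes at least 1 value was not a whole number of reads where the gene's other values were, and this is stated beside each such gene named here. The ileal bile acid carriers marked the tissue in all 12 libraries: Fabp6, the bile acid-binding protein of ileal cells, stood between 2415 and 9713 RPKM, and Slc10a2, the bile acid uptake transporter, between 64.4 and 123 RPKM. Genes of the duodenum (Pdx1, Onecut2) and distal colon (Hoxb13) did not pass 0.131 RPKM in any library. Other segment markers reached higher values, with maxima of 241 RPKM for Car1, 12 RPKM for Aqp8 and 5.02 RPKM for Gata4. How much of each piece came from other segments was not tested.

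Over both diets, no gene passed the test. Genes entered the test when 3 or more libraries reached 0.5 RPKM, and of these 17662 genes 0 (0%) had a Benjamini-Hochberg adjusted p under 0.05 in limma, and the smallest adjusted p was 0.998. An unadjusted p under 0.05 was reached by 693 genes (3.92%), 324 of them higher (1.83%) and 369 lower (2.09%) with sugar. If no gene differed, a share of about 0.05 would be expected at this p, so 3.92% is not above it in this fit. Some alternative settings, given at the end, were above it. The shares given below for each diet, for dietary fat and for the difference between diets are also under it. A difference above 0 was found for 49.9% of all genes tested, for 48.6% on normal fat and for 51.4% on high fat. A second fit on the reads recovered from the RPKM values, limma-voom, gave 0 of 16883 genes past the adjusted threshold and 697 under an unadjusted p of 0.05. The median SE of a difference was 0.124. The differences themselves were small, with the middle 50% of genes between -0.0956 and 0.084, and 71 genes (0.402%) differed by 2-fold or more. Dietary fat, tested in the same fit over both drinks, likewise gave 0 genes past the adjusted threshold (471 at an unadjusted p under 0.05, 2.67%), and its median absolute difference of 0.0805 was near the 0.0895 of sugar. Every difference given from here on is therefore the measured value with its unadjusted p, and apart from Il1b on the high-fat diet none passed the test across all genes.

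The response to the drink on one diet was weakly related to that on the other. Across the 17662 genes the difference NF_Sugar minus NF and the difference HF_Sugar minus HF, which share no library, had Pearson's r of 0.19 and Spearman's rho of 0.143, a description across genes that are not independent of each other. The direction was the same on both diets for 54.6% of genes. On normal fat alone 0 genes (0%) passed the adjusted threshold in limma, with 328 (1.86%) at an unadjusted p under 0.05 (289 in limma-voom, also with 0 past the adjusted threshold). On high fat alone 1 gene, Il1b, passed (0.00566%), with 787 (4.46%) at an unadjusted p under 0.05. In each diet separately an unadjusted p under 0.05 with the same sign was reached by 14 genes (0.0793%), and with opposite signs by 7 genes (0.0396%). Groups of 3 against 3 that do not overlap were common in the background: after scaling, the sugar libraries were all above or all below the water libraries for 6.62% of genes on normal fat and 9.98% on high fat. In both diets at once they were above for 22 genes (0.125%) and below for 33 (0.187%).

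**Figure D1:**
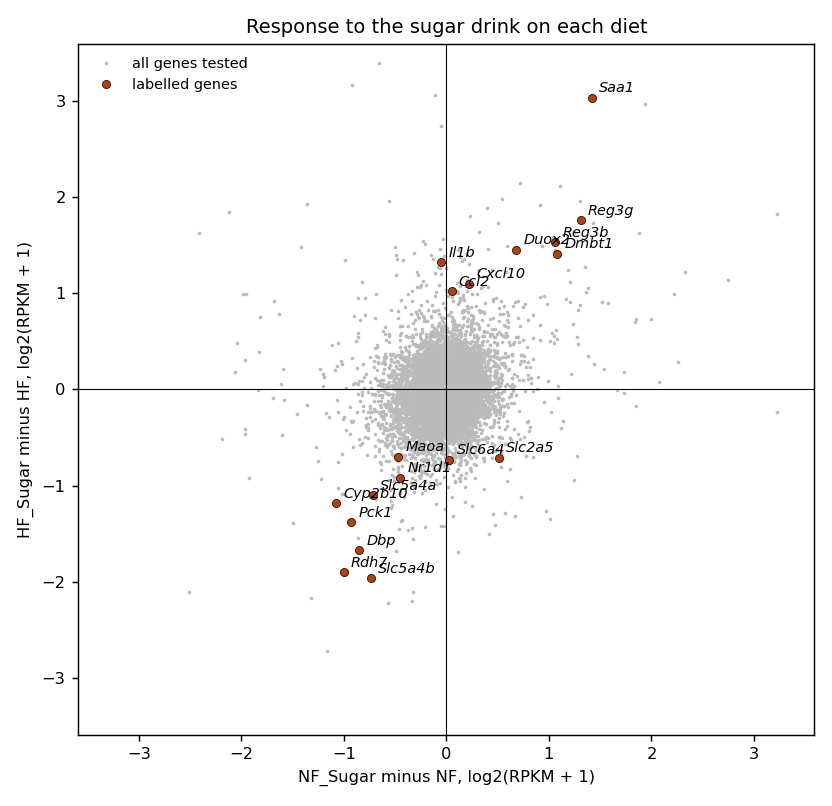
Response of each gene to the sugar drink on the normal-fat diet (horizontal axis, NF_Sugar minus NF) and on the high-fat diet (vertical axis, HF_Sugar minus HF), both in log2(RPKM + 1). Each grey point is 1 of the 17662 genes tested and the red points are genes named in the text. Most genes lie near the centre, Reg3g, Reg3b, Dmbt1 and Saa1 lie above 0 on both axes, Rdh7, Dbp, Pck1 and Slc5a4b below 0 on both, and Slc2a5 has opposite signs.

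Genes that digest and carry sugar had mostly negative differences, and these came from the high-fat diet, where 1 of 12 was higher with sugar, against 7 of 12 on normal fat. All 12 genes of the list were tested, 11 had a difference below 0 and 1 above 0, and 3 of the lower ones had an unadjusted p under 0.05, against 2.09% of all genes tested. Among the lower ones, Sis, Mgam, Slc2a1, Slc5a1 and Slc2a5 lay between -0.10 and 0.00. Their sign changed when single mice were left out, as did that of Slc5a9, the 1 above 0. The list's median difference was -0.22, against -0.000182 over all genes, and it was 0.01 on normal fat and -0.72 on high fat. The 3 genes were the sodium-glucose cotransporter family members Slc5a4a and Slc5a4b, neighbours on chromosome 10 with 36489 bases between them, and trehalase.

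Slc5a4a (chromosome 10, 76147451 to 76189265, plus strand, GRCm38) encodes a relative of SGLT1 of the SGLT3 type, whose members have been described as glucose sensors rather than carriers. Slc5a4a stood at 3.28, 1.91 and 5.06 RPKM in NF, 2.11, 0.795 and 2.04 in NF_Sugar, 7.43, 2.93 and 4.26 in HF and 1.38, 1.37 and 2.12 in HF_Sugar. All 6 sugar libraries were at or below 2.12 RPKM, and 5 of the 6 water libraries lay above them, NF 2 being the exception. The difference was -0.91 ± 0.22 (unadjusted p = 0.00151, adjusted p = 0.998 in limma, two-sided exact permutation p = 0.01, where 0.005 is the smallest p the 400 arrangements within diets allow), with -0.72 on normal fat and -1.10 on high fat.

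Slc5a4b stood at 3.97, 3.14 and 4.73 RPKM in NF, 4.08, 0.34 and 2.78 in NF_Sugar, 23.2, 2.69 and 9.42 in HF and 2.01, 0.73 and 1.96 in HF_Sugar. On high fat the groups did not overlap, while on normal fat they did, and the NF_Sugar value of 0.34 RPKM and the HF value of 23.2 RPKM were far from their groups. The difference was -1.35 ± 0.46 (unadjusted p = 0.0136, exact permutation p = 0.015). Slc5a4a and Slc5a4b are close copies, and how reads that match both were assigned is not given in the sources used here, so their values may not be independent.

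Treh stood at 34.1, 18.5 and 28.9 RPKM in NF, 31.7, 16.2 and 26.2 in NF_Sugar, 57.5, 43.2 and 34.2 in HF and 24.3, 19.1 and 21.8 in HF_Sugar. Trehalase, the brush border enzyme that splits the disaccharide trehalose, was lower in all 3 HF_Sugar than in all 3 HF libraries, and its 2 groups overlapped on normal fat. The pooled difference was -0.57 ± 0.23 (unadjusted p = 0.0309), made up of -0.15 on normal fat and -0.99 on high fat.

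The enzymes and carriers that sucrose itself depends on showed pooled differences close to 0. Sis (sucrase-isomaltase) stood at 81, 85.3 and 109 RPKM in NF, 133, 77.9 and 136 in NF_Sugar, 138, 131 and 123 in HF and 118, 108 and 94.2 in HF_Sugar. Its mean was 111 RPKM in both arms, with an SD of 23.8 in water and 22.6 in sugar (n = 6 each), and the pooled difference was 0.00 ± 0.17 with a 95% interval from -0.38 to 0.37. That value averages 0.29 on normal fat and -0.29 on high fat, where all HF_Sugar libraries lay below all HF libraries. Slc5a1 (SGLT1) stood at 257, 231 and 210 RPKM in NF, 243, 184 and 286 in NF_Sugar, 257, 178 and 241 in HF and 218, 232 and 165 in HF_Sugar, with a pooled difference of -0.06 ± 0.16. Mgam, the maltase that digests starch, differed by -0.01 ± 0.16 and the basolateral glucose carrier Slc2a1 by -0.04 ± 0.12. The sign of these 4 differences was not stable when single mice were left out. GLUT2 (Slc2a2), which carries glucose and fructose out of the cell, differed by -0.34 ± 0.48, with its highest value of 14.6 RPKM in HF 1 and its lowest of 1.13 RPKM in HF_Sugar 3. Lactase (Lct) spread most widely, from 0.0773 RPKM in NF_Sugar 2 to 57.8 RPKM in HF 1, and differed by -1.22 ± 0.90. Slc2a7 differed by -0.36 ± 0.20 and the mannose and glucose carrier Slc5a9 by 0.12 ± 0.16.

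The fructose carrier GLUT5 (Slc2a5, chromosome 4, 150119283 to 150144169, plus strand) went opposite ways on the 2 diets. Slc2a5 stood at 14.9, 18.8 and 15.9 RPKM in NF, 29.8, 23 and 20 in NF_Sugar, 33.5, 28.8 and 22.3 in HF and 22.7, 16.9 and 11.9 in HF_Sugar. On normal fat all 3 sugar libraries were above all 3 water libraries. On high fat all but 1 of the sugar libraries were below all the HF libraries, HF_Sugar 1 at 22.7 RPKM lying just above the lowest of them. The difference was 0.51 on normal fat (unadjusted p = 0.0864) and -0.71 on high fat (unadjusted p = 0.0244). The difference between these responses was -1.22 ± 0.38 (unadjusted p = 0.00908), and no gene passed the adjusted threshold for that difference, so the pooled value of -0.10 ± 0.26 averages 2 values of opposite sign. The HF mice on water had more Slc2a5 than the NF mice on water, at 22.3 to 33.5 against 14.9 to 18.8 RPKM.

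**Figure D2:**
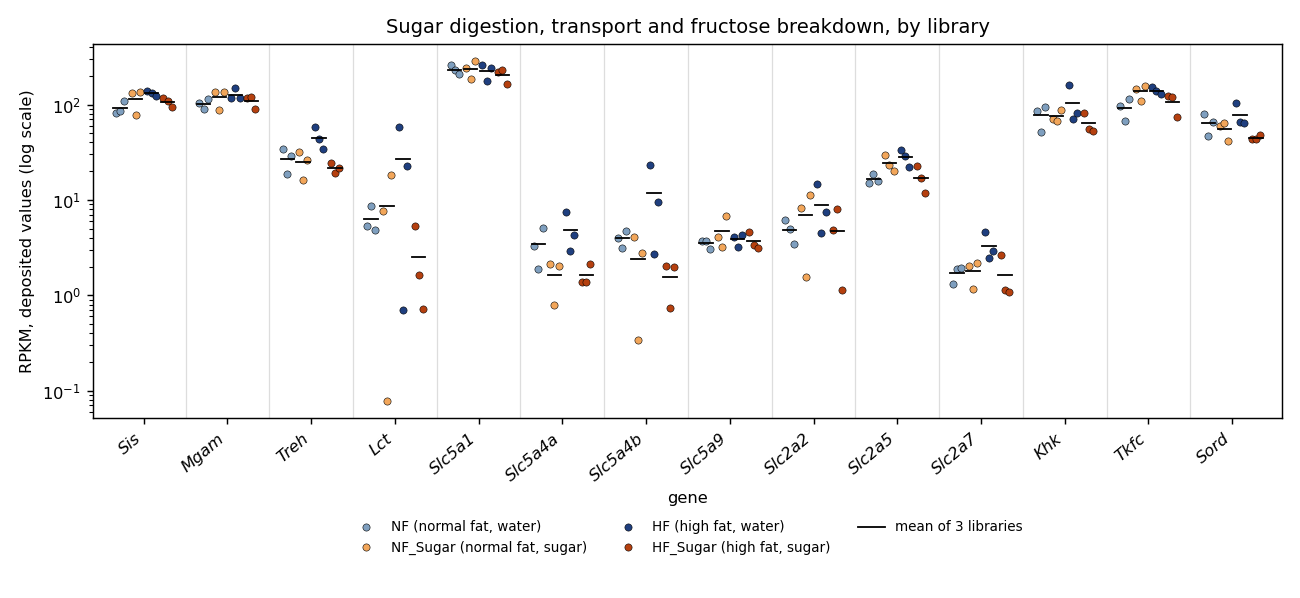
RPKM of genes for sugar digestion, transport and fructose breakdown in each library (vertical axis, log scale), with 3 points per group and a bar at the group mean. The means of Slc5a4a, Slc5a4b and Treh are lowest in HF_Sugar (1.62, 1.57 and 21.7 RPKM) and the lowest single library is NF_Sugar 2. Mgam and Slc5a1 overlap across the 4 groups. Sis overlaps on normal fat and is lower in all HF_Sugar than in all HF libraries. Slc2a5 is higher with sugar on normal fat and lower on high fat.

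Fructose breakdown followed the same division by diet. Of the 5 genes, all tested, 2 had a difference above 0 and 3 below, 1 with an unadjusted p under 0.05, and the list's median was 0.09 on normal fat and -0.41 on high fat, where all 5 were lower with sugar. Sord stood at 79.8, 46.6 and 65 RPKM in NF, 60.1, 63.4 and 41.7 in NF_Sugar, 104, 65.1 and 63.4 in HF and 43, 43.7 and 47.5 in HF_Sugar. Sorbitol dehydrogenase, which makes fructose from sorbitol, was lower in all 3 HF_Sugar than in all 3 HF libraries and differed by -0.47 ± 0.19 over both diets (unadjusted p = 0.0271, exact permutation p = 0.03). Khk (ketohexokinase) stood at 86, 51.7 and 93.3 RPKM in NF, 70.7, 67.9 and 87.3 in NF_Sugar, 160, 70.2 and 80.7 in HF and 82.3, 55.6 and 52.4 in HF_Sugar. The HF 1 library was far above the others, the groups overlapped on each diet, and the difference of -0.32 ± 0.23 (unadjusted p = 0.199) was -0.12 without HF 1. Tkfc, the triokinase that phosphorylates glyceraldehyde from fructose, differed by 0.57 on normal fat and by -0.41 on high fat (unadjusted p of the difference between diets 0.0172), and Glyctk, glycerate kinase, by 0.30 and -0.29.

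The carbohydrate-response factor and its known targets differed little between the drinks. Of 10 listed genes 9 were tested, Fgf21 staying at or below 0.192 RPKM, and 6 had a difference above 0 and 3 below, none with an unadjusted p under 0.05, with a median of 0.09. Mlxipl (ChREBP) stood at 9.54, 7.95 and 13.2 RPKM in NF, 16.1, 9.15 and 11.9 in NF_Sugar, 13.2, 23.2 and 15.8 in HF and 14.6, 15.2 and 14.3 in HF_Sugar, with a difference of 0.03 ± 0.17. Txnip, an arrestin that limits glucose uptake, stood between 93.7 and 203 RPKM and differed by -0.06 ± 0.12, its relative Arrdc4 by 0.16 ± 0.17, and the liver-type pyruvate kinase Pklr by 0.49 on normal fat and -0.22 on high fat (unadjusted p of the difference between diets 0.0123). Gpd1, glycerol-3-phosphate dehydrogenase, was lower in all 3 HF_Sugar libraries (88.8 to 106 RPKM) than in all 3 HF libraries (124 to 151 RPKM), with 0.04 on normal fat and -0.50 on high fat. The remaining tested members, Rgs16, Klf10, Mlx and Thrsp, differed by between -0.09 and 0.13, and leaving out single mice turned the sign of Mlxipl, Mlx, Thrsp and Txnip.

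Among gluconeogenic genes, 3 of 6 were higher and 3 lower, and the cytosolic PEP carboxykinase Pck1, the enzyme that commits carbon to new glucose, had an unadjusted p under 0.05. Pck1 stood at 48.1, 15.9 and 52.4 RPKM in NF, 16.9, 12.1 and 26.6 in NF_Sugar, 57.2, 19 and 14.7 in HF and 6.84, 10.9 and 10.1 in HF_Sugar. Each diet had a wide spread in its water group, the groups overlapped on normal fat and not on high fat, and the difference was -1.15 ± 0.36 (unadjusted p = 0.00792, exact permutation p = 0.025). Its mitochondrial counterpart Pck2 differed by 0.21 ± 0.12.

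Genes with the smallest p in the pooled comparison came from several functions. Sugar libraries that were all above or all below the 6 water libraries after scaling were found for 4 genes (0.0226%) and 14 genes (0.0793%) of those tested. In such genes the lack of overlap fixes the exact permutation p at 0.005, so that p only restates it. The 4 higher ones were Trpv2, Unc5cl, Fcgr2b and the immunoglobulin segment Ighv1-11, of which the last 2 are named here after their values were seen. Among the 14 lower ones were Maoa, the arsenic methyltransferase As3mt, the sphingosine kinase Sphk2 and the proapoptotic Pmaip1, the last 3 likewise named after their values were seen.

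Maoa stood at 54.7, 57.8 and 73.2 RPKM in NF, 51.6, 40.8 and 41.7 in NF_Sugar, 92.6, 62.5 and 59.5 in HF and 33.9, 43.9 and 52.2 in HF_Sugar. Monoamine oxidase A (chromosome X, 16619698 to 16687818, plus strand), the mitochondrial enzyme that degrades serotonin and noradrenaline, was lower in all 6 sugar libraries than in all 6 water libraries, with 54.7 RPKM the lowest value with water and 52.2 RPKM the highest with sugar. The difference was -0.58 ± 0.14 (unadjusted p = 0.0017, exact permutation p = 0.005, the smallest possible), -0.47 on normal fat and -0.70 on high fat, and it ranged from -0.66 to -0.48 when each mouse was left out in turn. Unc5cl stood at 8.72, 10.1 and 7.94 RPKM in NF, 11, 14.1 and 15.6 in NF_Sugar, 6.7, 10.3 and 10.6 in HF and 18.7, 11.1 and 13 in HF_Sugar. This death domain protein of epithelial cells (chromosome 17, 48454901 to 48539714, plus strand) was higher in all 6 sugar libraries, from 11 RPKM upward, than in all water libraries, up to 10.6 RPKM, with a difference of 0.56 ± 0.16 (unadjusted p = 0.0044, exact permutation p = 0.005).

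Trpv2 stood at 0.784, 0.721 and 1.01 RPKM in NF, 1.12, 1.24 and 1.4 in NF_Sugar, 0.905, 1.01 and 1.14 in HF and 1.56, 1.17 and 1.66 in HF_Sugar. The cation channel Trpv2 (chromosome 11, 62574486 to 62600515, plus strand), found on macrophages among other cells, was higher with sugar in each diet, although HF 3 at 1.14 RPKM lay above NF_Sugar 1 at 1.12 RPKM before scaling, and it had the smallest p among the higher genes that are named by rule, at 0.29 ± 0.06 (unadjusted p = 0.000678, exact permutation p = 0.005). Slc40a1 stood at 2.94, 4.1 and 2.79 RPKM in NF, 4.52, 4.57 and 5.23 in NF_Sugar, 1.25, 2.6 and 2.46 in HF and 5.19, 3.14 and 3.95 in HF_Sugar. Ferroportin, the iron exporter of enterocytes and macrophages, was higher in each diet, with a difference of 0.58 ± 0.16 (unadjusted p = 0.00309). S1pr1, the sphingosine phosphate receptor of endothelium and lymphocytes, differed by 0.37 ± 0.09 (unadjusted p = 0.00133) and the membrane linker moesin (Msn) by 0.28 ± 0.07 (unadjusted p = 0.00199), and Msn did not overlap on either diet. Ccr7, the receptor that brings dendritic cells and T cells to lymph nodes, differed by 0.49 ± 0.12 (unadjusted p = 0.00209), but its value was not a whole number of reads in any of the 3 HF_Sugar libraries, which also were its highest.

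Lower genes by the same rule included Rdh7, a retinol dehydrogenase. Rdh7 stood at 25.6, 13.5 and 29 RPKM in NF, 16.3, 4.13 and 15.6 in NF_Sugar, 65.2, 32.9 and 29.1 in HF and 5.66, 10.7 and 15.4 in HF_Sugar. The difference was -1.45 ± 0.37 (unadjusted p = 0.00225, exact permutation p = 0.015), with no overlap on high fat and overlap on normal fat. Pparg stood at 2.5, 2.22 and 2.2 RPKM in NF, 1.34, 1.29 and 1.44 in NF_Sugar, 1.83, 1.43 and 1.88 in HF and 1.07, 1.34 and 1.71 in HF_Sugar. Pparg, the nuclear receptor that drives fat storage genes, did not overlap on normal fat, where it was lower with sugar, and overlapped on high fat, with a pooled difference of -0.35 ± 0.09 (unadjusted p = 0.00248, exact permutation p = 0.01), -0.50 on normal fat and -0.20 on high fat. Gamt, the last enzyme of creatine synthesis, differed by -0.42 ± 0.11 (unadjusted p = 0.00354), Tnks1bp1, a tankyrase-binding protein, by -0.47 ± 0.13 (unadjusted p = 0.00357), and Atp5l-ps1 by -0.39 ± 0.10 (unadjusted p = 0.00295). Atp5l-ps1 is annotated as a processed pseudogene of a subunit of ATP synthase, so its reads could be those of the parent gene.

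Antimicrobial and barrier proteins of the epithelium made up the list with the highest median. Of 16 listed genes 15 were tested, 13 had a difference above 0 and 2 below, and 8 had an unadjusted p under 0.05, all higher, against 1.83% of all genes tested. Like every list here, it was chosen with earlier results of these data known, and its members are not independent of each other. The count is therefore a description and not a test of the list. The median difference was 0.90 over both diets, 0.58 on normal fat and 1.22 on high fat, and 12 of the 15 had the same sign on both. Averaged over the tested members in log2(RPKM + 1), the libraries stood at 4.66, 5.04 and 4.58 in NF, 4.71, 6.36 and 5.31 in NF_Sugar, 3.30, 4.21 and 4.22 in HF, and 5.46, 4.52 and 4.82 in HF_Sugar. Each HF_Sugar library was thus above each HF library, while NF_Sugar 1 lay within the NF range and NF_Sugar 2 far above it.

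Reg3g stood at 1614, 2126 and 1097 RPKM in NF, 1926, 7338 and 4180 in NF_Sugar, 264, 803 and 922 in HF and 4146, 1656 and 1106 in HF_Sugar. The C-type lectin Reg3g (chromosome 6, 78466269 to 78468872, minus strand), which binds and kills Gram-positive bacteria, did not overlap on high fat and overlapped on normal fat through NF_Sugar 1. Its difference was 1.54 ± 0.45 (unadjusted p = 0.00539, exact permutation p = 0.01), 1.31 on normal fat and 1.76 on high fat. Reg3b stood at 2422, 2795 and 2318 RPKM in NF, 2229, 9912 and 6624 in NF_Sugar, 628, 1517 and 1638 in HF and 7867, 2153 and 2217 in HF_Sugar. Its neighbour on chromosome 6, Reg3b, 92802 bases away, differed by 1.30 ± 0.43 (unadjusted p = 0.0116), and the highest libraries were the same in both genes, NF_Sugar 2, NF_Sugar 3 and HF_Sugar 1.

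Dmbt1 stood at 60.6, 138 and 110 RPKM in NF, 140, 344 and 186 in NF_Sugar, 26.8, 69.1 and 83.8 in HF and 226, 117 and 113 in HF_Sugar. Dmbt1 (chromosome 7, 131032053 to 131121630, plus strand), a secreted scavenger receptor that aggregates bacteria, was higher with sugar in all libraries of each diet as deposited, though after scaling NF 2 lay above NF_Sugar 1, and it had the smallest p of the list, with a difference of 1.24 ± 0.34 (unadjusted p = 0.00361, exact permutation p = 0.01). The means were 81.4 ± 39.1 RPKM with water and 188 ± 88 RPKM with sugar (SD, n = 6 each). Serum amyloid A1, a retinol-carrying acute-phase protein made by ileal epithelium, had a wide range. Saa1 stood at 64.8, 114 and 60.1 RPKM in NF, 57.3, 652 and 234 in NF_Sugar, 1.15, 38.8 and 18.9 in HF and 222, 89.8 and 44.6 in HF_Sugar. NF_Sugar 2 was the highest library and HF 1 the lowest, the groups overlapped on normal fat and not on high fat, and the difference was 2.22 ± 0.79 (unadjusted p = 0.016). Saa2, its neighbour with 8809 bases between them, differed by 1.44 ± 0.56 (unadjusted p = 0.0259), and reads shared between the 2 copies cannot be told apart.

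The hydrogen peroxide-producing oxidase Duox2 and its maturation factor Duoxa2, which lie 450 bases apart, ran together. Duox2 stood at 22.8, 29.1 and 17.3 RPKM in NF, 26.4, 50.8 and 38.2 in NF_Sugar, 6.36, 17.2 and 26.3 in HF and 50.1, 25.5 and 53.8 in HF_Sugar. Duox2 overlapped on both diets by 1 library and differed by 1.07 ± 0.34 (unadjusted p = 0.00835), and Duoxa2 differed by 0.90 ± 0.35 (unadjusted p = 0.025). Lipocalin 2, which withholds iron from bacteria, stood between 0.406 and 1.62 RPKM and differed by 0.30 ± 0.13 (unadjusted p = 0.0352). Retnlb, a goblet cell protein, reached 36.1 RPKM in NF_Sugar 2 against at most 3.36 RPKM in the other libraries, and differed by 1.31 ± 0.61 (unadjusted p = 0.056). Nos2 differed by 0.45 ± 0.32 and Reg3a, a further lectin of the family, by -0.07 ± 0.41, with 0.53 on normal fat and -0.66 on high fat. Of these genes only Dmbt1 and Reg3g were named by the rule, and the others after their values were seen.

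**Figure D3:**
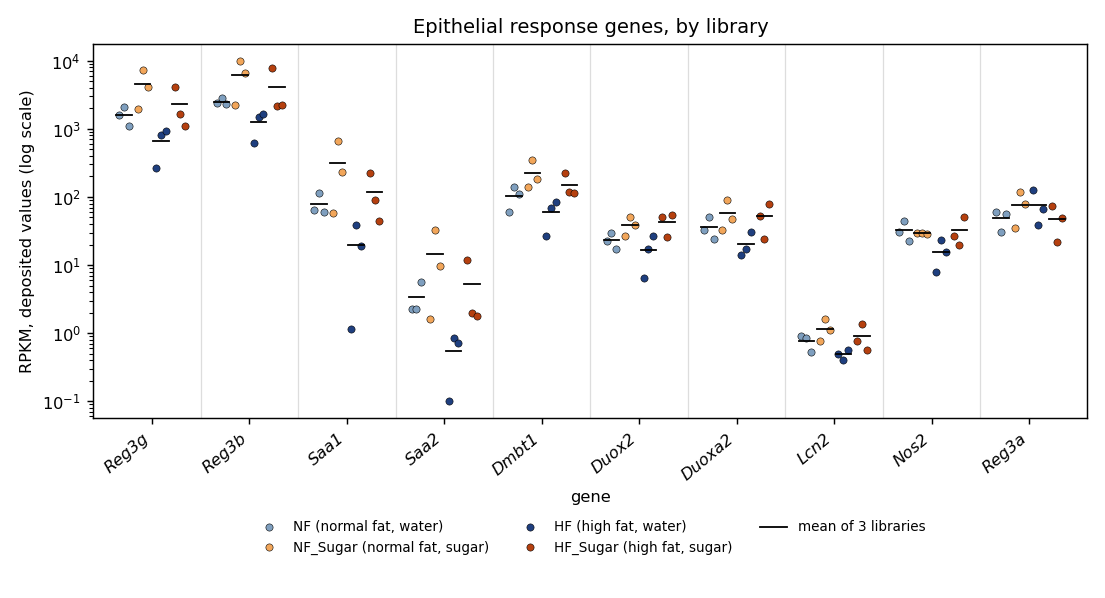
RPKM of epithelial response genes in each library (vertical axis, log scale), with 3 points per group and a bar at the group mean. Reg3g, Reg3b, Dmbt1, Saa1 and Saa2 have higher means with sugar on each diet, their lowest library is HF 1 in each case, and Reg3a overlaps across groups.

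A single library on water was extreme for many of these genes. HF 1 had the lowest value of Reg3g, Reg3b, Saa1, Saa2, Dmbt1 and Duox2 among the 12 libraries and the highest of Slc5a4a, Slc5a4b, Lct, Khk, Rdh7 and Maoa. Averaged over tested members in log2(RPKM + 1), HF 1 was also highest for sugar digestion and transport (4.75) and for fat absorption and chylomicron assembly (6.76). Without it, 365 genes rather than 693 had an unadjusted p under 0.05 over both diets, and the difference of Reg3g stayed within 1.26 to 1.78 and that of Dmbt1 within 1.01 to 1.40 over all 12 fits that left out 1 mouse.

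Interferon-induced genes were higher with sugar in 27 of 28 tested (30 listed), against 49.9% of all genes, and 5 had an unadjusted p under 0.05 (1.83% of all genes were higher at that p). The list's median was 0.28. The medians were 0.14 on normal fat and 0.51 on high fat. Isg15 stood at 7.13, 16.4 and 7.78 RPKM in NF, 13, 10.2 and 22.1 in NF_Sugar, 12.3, 12.2 and 10.1 in HF and 20.5, 14.3 and 24.9 in HF_Sugar. Isg15, a ubiquitin-like protein, did not overlap on high fat and overlapped on normal fat, with a difference of 0.61 ± 0.24 (unadjusted p = 0.0248), and Xaf1 differed by 0.29 ± 0.11 (unadjusted p = 0.0218). Zbp1, a sensor of Z-form nucleic acids, differed by 1.04 ± 0.41 (unadjusted p = 0.027), Parp14 by 0.49 ± 0.19 and Trim30a by 0.27 ± 0.12, all 3 named after their values were seen. Genes of antigen presentation by MHC class II, 10 of 10 tested, had 9 above 0 and none at an unadjusted p under 0.05, with a median of -0.16 on normal fat and 1.02 on high fat. H2-Eb1 ranged from 69.7 to 429 RPKM and differed by 0.51 ± 0.44, and the list's master regulator Ciita by 0.54 ± 0.33.

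Cytokines and chemokines were mostly at low levels: 15 of 26 were tested, 10 had a difference above 0, 4 with an unadjusted p under 0.05 (49.9% and 1.83% of all genes tested), and the medians were -0.03 on normal fat and 0.55 on high fat. Cxcl10 stood at 0.376, 1.07 and 0.901 RPKM in NF, 0.728, 1.16 and 1.31 in NF_Sugar, 0.985, 1.13 and 0.901 in HF and 3.83, 2.28 and 4.01 in HF_Sugar. The T cell attractant Cxcl10 was above all other libraries in the 3 of HF_Sugar, of which 1 and 2 held values that were not whole reads (194.41 and 140.68 reads recovered), with a pooled difference of 0.66 ± 0.18 (unadjusted p = 0.00375) and a difference between the diets at an unadjusted p of 0.00823. Ccl2 stood at 0.0676, 0.0958 and 0.364 RPKM in NF, 0, 0.261 and 0.403 in NF_Sugar, 0.184, 0.447 and 0.261 in HF and 1.95, 1.93 and 1.13 in HF_Sugar. The monocyte attractant Ccl2 had a pooled difference of 0.54 ± 0.19 (unadjusted p = 0.0141) that came from high fat, at 1.02 against 0.05 on normal fat (unadjusted p of the difference between diets 0.00274). Ccl12 stood at 0.287, 0.338 and 0.154 RPKM in NF, 0.548, 0.83 and 0.732 in NF_Sugar, 0.156, 0 and 0.184 in HF and 0.413, 0.68 and 0.343 in HF_Sugar. Ccl12, a related chemokine named after its values were seen, was by contrast higher on both diets, at 0.43 and 0.41 (pooled 0.42 ± 0.08, unadjusted p = 0.00035, exact permutation p = 0.005), and no water value as deposited reached any sugar value, though after scaling they overlapped.

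Circadian clock genes differed in both directions. The clock is a loop in which Arntl and Clock switch on the Per, Cry and Nr1d genes and the PAR-bZip factors Dbp and Tef through E-box motifs, and their products then act back on Arntl, Nfil3 and each other. Of 17 listed genes 16 were tested, 6 had a difference above 0 and 10 below, 5 had an unadjusted p under 0.05, 4 lower and 1 higher, against 2.09% and 1.83% of all genes tested. The list's median was -0.12, with -0.09 on normal fat and -0.16 on high fat, and 13 of 16 had the same sign on both diets. The hour at which each mouse was killed is not given in the sources used here, and its part in these values was not tested.

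Nr1d1 stood at 37.7, 37.3 and 25 RPKM in NF, 25.3, 23.2 and 23.6 in NF_Sugar, 44.3, 40.7 and 42.3 in HF and 19.1, 22.7 and 24.1 in HF_Sugar. REV-ERBα (Nr1d1, chromosome 11, 98767932 to 98775333, minus strand), the repressor that sits in this loop, was at or below 25.3 RPKM in all 6 sugar libraries and at or above 37.3 RPKM in 5 of 6 water libraries, NF 3 at 25 RPKM being the exception. The difference was -0.68 ± 0.15 (unadjusted p = 0.000891, the smallest among the lower genes named by rule, exact permutation p = 0.02), -0.45 on normal fat and -0.92 on high fat. Ciart stood at 0.897, 0.707 and 0.604 RPKM in NF, 0.446, 0.285 and 0.203 in NF_Sugar, 0.796, 0.368 and 0.7 in HF and 0.0785, 0.355 and 0.38 in HF_Sugar. Ciart (chromosome 3, 95878503 to 95882251, minus strand), a transcriptional repressor of the clock, was present at below 1 RPKM and did not overlap on normal fat. On high fat it overlapped by HF 2 as deposited, though not after scaling. Ciart differed by -0.38 ± 0.10 (unadjusted p = 0.00246, exact permutation p = 0.005).

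Dbp stood at 4.24, 5.84 and 4.45 RPKM in NF, 8.4, 1.16 and 0.674 in NF_Sugar, 18.4, 5.68 and 7.21 in HF and 1.94, 1.09 and 4.32 in HF_Sugar. Dbp, an output factor of the clock, was high in NF_Sugar 1 and HF 1 and at or below 4.32 RPKM in the other 5 sugar libraries, and differed by -1.26 ± 0.44 (unadjusted p = 0.0154). Tef had the same outlying sugar library, NF_Sugar 1 at 10.6 RPKM, and differed by -0.47 ± 0.25. Cry2 differed by -0.34 ± 0.13 (unadjusted p = 0.025) and Nr1d2 by -0.42 ± 0.21. Nfil3, which represses the targets of Dbp, differed in the other direction, by 0.69 ± 0.30 (unadjusted p = 0.0429), and so did Arntl, by 0.31 ± 0.17, and Cry1, by 0.30 ± 0.17. Except for Nr1d1 and Ciart, these genes were named after their values were seen.

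**Figure D4:**
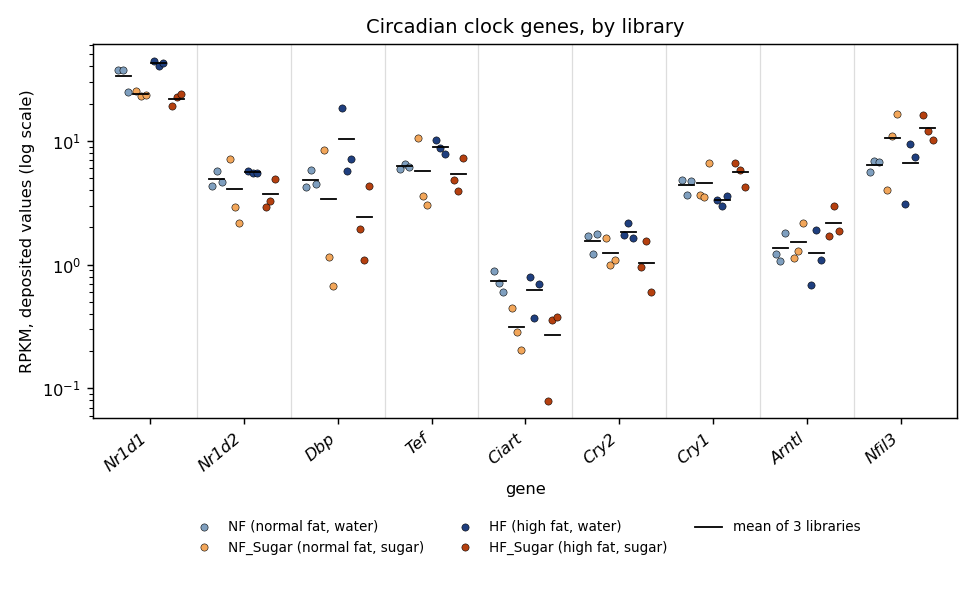
RPKM of circadian clock genes in each library (vertical axis, log scale), with 3 points per group and a bar at the group mean. Nr1d1, Ciart, Dbp and Cry2 have lower means with sugar on each diet, Nfil3 and Arntl higher means, and the NF_Sugar 1 library lies among or above the water libraries for Nr1d2, Dbp and Tef.

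The promoters of Ciart, Nr1d1, Dbp and Khk are shown because these genes are described here and the E-box, to which both the clock factors and relatives of ChREBP bind, was searched for in them. They run from 250 bases before to 50 bases after the RefSeq start in build GRCm38.p6, 5′ to 3′ on the gene's strand, with each CACGTG in capitals, a motif that reads the same on both strands.
Ciart, chr3:95882179-95882478, minus strand: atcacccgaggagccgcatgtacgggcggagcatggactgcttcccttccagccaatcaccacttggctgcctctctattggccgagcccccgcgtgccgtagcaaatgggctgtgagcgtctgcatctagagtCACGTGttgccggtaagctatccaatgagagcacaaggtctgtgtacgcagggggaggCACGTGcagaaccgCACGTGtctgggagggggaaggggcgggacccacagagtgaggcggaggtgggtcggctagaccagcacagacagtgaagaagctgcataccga
Nr1d1, chr11:98775328-98775627, minus strand: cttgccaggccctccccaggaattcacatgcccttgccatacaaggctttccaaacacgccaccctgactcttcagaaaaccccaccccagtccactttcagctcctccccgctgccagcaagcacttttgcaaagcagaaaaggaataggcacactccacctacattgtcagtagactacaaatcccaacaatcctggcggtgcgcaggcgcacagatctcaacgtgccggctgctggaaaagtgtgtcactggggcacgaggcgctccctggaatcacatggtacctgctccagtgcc
Dbp, chr7:45704997-45705296, plus strand: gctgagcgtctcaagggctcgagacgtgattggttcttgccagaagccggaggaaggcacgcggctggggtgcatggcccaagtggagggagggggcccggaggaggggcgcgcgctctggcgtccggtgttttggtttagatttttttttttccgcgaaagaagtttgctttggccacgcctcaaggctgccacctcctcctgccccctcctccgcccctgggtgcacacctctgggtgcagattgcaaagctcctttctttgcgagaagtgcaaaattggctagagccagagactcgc
Khk, chr5:30921309-30921608, plus strand: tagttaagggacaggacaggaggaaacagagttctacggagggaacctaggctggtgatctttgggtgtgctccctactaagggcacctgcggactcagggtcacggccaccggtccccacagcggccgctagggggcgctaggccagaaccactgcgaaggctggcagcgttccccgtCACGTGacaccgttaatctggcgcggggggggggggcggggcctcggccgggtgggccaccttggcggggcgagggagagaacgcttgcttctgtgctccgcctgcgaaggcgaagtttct
The Ciart window held 3 motifs, which start 116, 58 and 44 bases before the gene's start, and the Khk window 1, which starts 71 bases before it. The Nr1d1 and Dbp windows held 0, which says only that these letters are not within these 300 bases. At least 1 CACGTG was found in the promoters of 5 of 15 clock genes with a RefSeq promoter (33.3%: Per1, Cry1, Tef, Ciart and Bhlhe41), 4 of 8 carbohydrate-response genes (50%: Mlxipl, Mlx, Arrdc4 and Fgf21), 2 of 11 sugar digestion and transport genes (Mgam and Slc5a1) and 1 of 4 fructolysis genes (Khk), against 8.09% of 27025 genes in all. The motif was found in 1 of 12 epithelial response genes (8.33%) and in 1 of 25 genes of xenobiotic metabolism (4%). Genes with the motif differed in both directions, Ciart by -0.38 ± 0.10 and Cry1 by 0.30 ± 0.17.

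Detoxifying enzymes formed the list with the lowest median. Of 26 listed genes 24 were tested, 23 had a difference below 0 and 1 above, and 5 had an unadjusted p under 0.05, against 2.09% of all genes lower at that p. The median was -0.38, with -0.41 on normal fat and -0.31 on high fat and the same sign on both diets in 19 of 24. Averaged over the tested members in log2(RPKM + 1), HF 1 was the highest library at 4.36 and NF_Sugar 2 the lowest at 2.98. The groups overlapped on both diets. HF 2 at 3.53 lay among the HF_Sugar values of 3.48 to 3.54, and NF_Sugar 1 at 3.93 within the NF range of 3.63 to 4.16. Cyp2b10 stood at 1.99, 2.01 and 1.8 RPKM in NF, 0.995, 0.0469 and 0.31 in NF_Sugar, 5.98, 0.307 and 1.76 in HF and 0.736, 0.0864 and 0.116 in HF_Sugar. Cyp2b10, a cytochrome P450 and the classical target of the receptor CAR, did not overlap on normal fat and overlapped on high fat through HF 2, and differed by -1.13 ± 0.33 (unadjusted p = 0.0056, exact permutation p = 0.015). The carboxylesterase Ces1g differed by -0.85 ± 0.25 (unadjusted p = 0.00605), and of the genes named after their values were seen, the glutathione transferase Gsta4 by -0.60 ± 0.20, Cyp2d26 by -0.82 ± 0.33 and Cyp2c68 by -0.54 ± 0.23. Dcxr stood at 20.7, 16.8 and 21.5 RPKM in NF, 15.2, 17.5 and 13.9 in NF_Sugar, 31.4, 21.9 and 17.4 in HF and 13.9, 14.3 and 13.2 in HF_Sugar. All sugar libraries but NF_Sugar 2 lay below all water libraries for Dcxr, the L-xylulose reductase, also named after its values were seen, and the difference was -0.51 ± 0.14 (unadjusted p = 0.00363, exact permutation p = 0.005).

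Genes for the uptake of fat were also mostly lower. In fat absorption and chylomicron assembly 19 of 21 genes were lower, 2 with an unadjusted p under 0.05, against 2.09% of all genes tested, and the median was -0.17. Apoa1 stood at 7328, 4654 and 6520 RPKM in NF, 5188, 2678 and 5956 in NF_Sugar, 10097, 5718 and 4680 in HF and 3901, 4693 and 3261 in HF_Sugar. Apolipoprotein A-I, the main protein of HDL, overlapped on both diets and differed by -0.60 ± 0.25 (unadjusted p = 0.0344), and Mogat2, which rebuilds triglycerides in the enterocyte, by -0.32 ± 0.14 (unadjusted p = 0.0447). Fatty acid oxidation and PPAR targets had 23 of 25 genes lower, with a median of 0.04 on normal fat and -0.25 on high fat, among them the liver and gut factor Creb3l3 at -0.65 ± 0.28 (unadjusted p = 0.0398). In amino acid and peptide uptake 13 of 18 genes were lower and 5 higher, 3 of the lower ones with an unadjusted p under 0.05, and the median was -0.12, with -0.05 on normal fat and -0.13 on high fat. The highest difference in that list was 0.23, for the neutral amino acid carrier Slc38a2 (unadjusted p = 0.0851). Slc15a1 stood at 60.1, 43.9 and 65.2 RPKM in NF, 38.7, 32.8 and 44.7 in NF_Sugar, 106, 31.1 and 63 in HF and 36.7, 25.9 and 32.7 in HF_Sugar. The oligopeptide carrier PepT1 (Slc15a1) overlapped on both diets and differed by -0.71 ± 0.24 (unadjusted p = 0.0128). Slc7a8, a carrier of neutral amino acids, differed by -0.67 ± 0.19 (unadjusted p = 0.00492, exact permutation p = 0.005). Cubn and Amn, the 2 chains of the ileal vitamin B12 receptor and members of the segment identity list, differed by -0.45 ± 0.18 and -0.46 ± 0.22.

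Lipid synthesis had differences of the opposite sign. Cholesterol synthesis had 21 of 25 genes higher, none with an unadjusted p under 0.05, and its median was -0.10 on normal fat and 0.44 on high fat. Lipogenesis had 11 of 15 higher with a median of 0.12, and both genes with an unadjusted p under 0.05 were higher. Scd2 stood at 13.4, 30.4 and 27.3 RPKM in NF, 20.7, 33.5 and 23.6 in NF_Sugar, 7.8, 21.8 and 16.2 in HF and 25.1, 58.3 and 36.3 in HF_Sugar. The desaturase Scd2 did not overlap on high fat and differed by 0.76 ± 0.34 (unadjusted p = 0.0445), and Acly, which supplies acetyl-CoA for fatty acid synthesis, by 0.23 ± 0.09 (unadjusted p = 0.0355).

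Cell type markers had smaller medians than the epithelial response list. Paneth cell genes were higher in 14 of 14, with a median of 0.20 and none at an unadjusted p under 0.05. Their median was 0.34 on normal fat and 0.05 on high fat, where 9 of 14 were higher. Cell cycle genes were higher in 22 of 24 with a median of 0.14 and 4 at an unadjusted p under 0.05, against 49.9% and 1.83% of all genes tested. Goblet cell genes were higher in 9 of 11 with a median of 0.14 and crypt stem cell genes in 14 of 16 with 0.09. B and plasma cell genes were higher in 17 of 19 with a median of 0.12, fibroblast genes in 13 of 14 with 0.17, endothelial genes in 12 of 14 with 0.06, and macrophage and dendritic cell genes in 14 of 15 with 0.14. T cell genes were higher in 8 of 18, with a median of -0.27 on normal fat and 0.26 on high fat. At an unadjusted p under 0.05, all higher, were 3 endothelial, 2 goblet cell, 2 crypt stem cell and 2 T cell genes. The B and plasma cell list and the fibroblast list had 1 each, and the macrophage and dendritic cell list 0. Smooth muscle had a median of 0.06, enteric neurons and glia 0.00, adipocytes -0.10 and red blood cells 0.23. For each of these lists the summed RPKM of the 6 sugar libraries overlapped that of the 6 water libraries. Paneth cell markers summed to 34718 to 118570 RPKM with sugar and 23687 to 67842 with water, B and plasma cell markers to 1015 to 2448 and 817 to 1564, and smooth muscle markers to 830 to 1901 and 936 to 1430. Pancreatic acinar markers summed to at most 5.08 RPKM with sugar and 32.6 RPKM with water. In a piece of bowel wall fewer cells of a type and less RNA per cell cannot be told apart, and the part of cell makeup in the differences above was not tested.

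**Figure D5:**
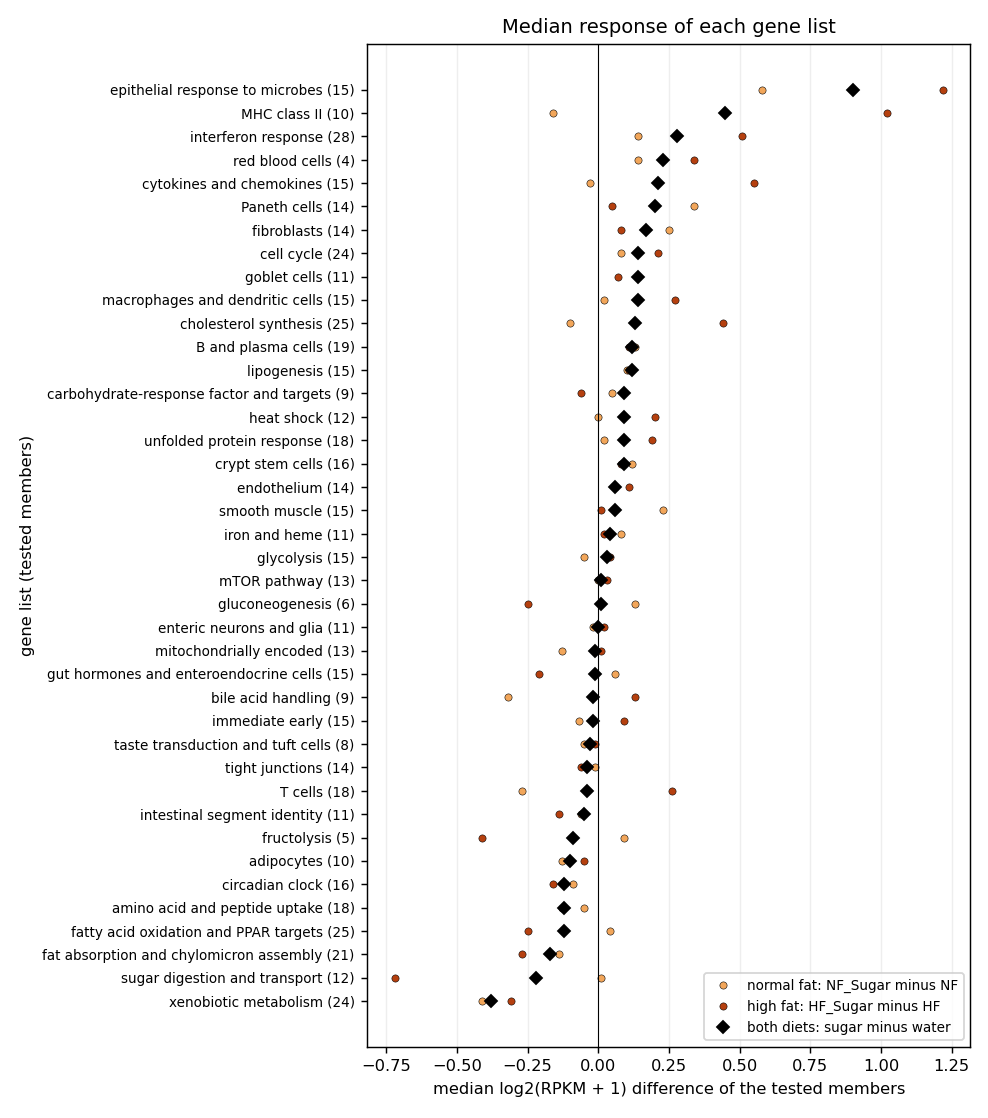
Median difference of the tested members of each gene list, in log2(RPKM + 1), on the normal-fat diet (orange), the high-fat diet (red) and over both (black diamonds), with the number of tested members in brackets. Epithelial response to microbes has the highest pooled median at 0.90 and xenobiotic metabolism the lowest at -0.38, and the 2 diets lie on opposite sides of 0 for MHC class II, cholesterol synthesis and T cells.

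The remaining lists were close to the background of all genes. Medians were 0.03 for glycolysis, -0.01 for mitochondrially encoded genes, -0.02 for immediate early genes, -0.02 for bile acid handling, 0.04 for iron and heme, 0.09 for heat shock, 0.09 for the unfolded protein response, -0.04 for tight junctions, -0.01 for gut hormones, -0.03 for taste transduction and tuft cells, -0.05 for intestinal segment identity and 0.01 for the mTOR pathway. Single members stood out by p: Asns, asparagine synthetase of the amino acid response, at 0.63 ± 0.21 (unadjusted p = 0.0127), and the transferrin receptor Tfrc at 0.29 ± 0.13 (unadjusted p = 0.0407). The heat shock genes Hspa1a and Hspa1b were high in NF_Sugar 3, at 18.3 and 25.6 RPKM, and in HF_Sugar 1, at 14.3 and 19.9 RPKM, against at most 5.49 and 8.79 RPKM in the other libraries, and they are near-identical copies. The Hspa1a value of NF 3 was not a whole number of reads. In the segment identity list Car1 went opposite ways on the 2 diets, at -2.41 on normal fat and 1.63 on high fat. Its pooled difference was -0.39 (unadjusted p = 0.795).

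Genes that the study's own text follows gave the following values. Tas1r3 stood at 0.314, 0.279 and 0.47 RPKM in NF, 0.274, 0.282 and 0.373 in NF_Sugar, 0.238, 0.381 and 0.254 in HF and 0.956, 0.646 and 0.711 in HF_Sugar. The sweet and umami receptor subunit Tas1r3 was higher in all 3 HF_Sugar libraries than in the other 9 and overlapped on normal fat, with -0.05 on normal fat, 0.45 on high fat (unadjusted p = 0.000749), and a difference between the diets of 0.50 ± 0.14 (unadjusted p = 0.00405). Its partner Tas1r2 did not pass 0.069 RPKM. Il1b stood at 0.484, 0.724 and 0.695 RPKM in NF, 0.353, 0.623 and 0.79 in NF_Sugar, 0.263, 0.606 and 0.778 in HF and 2.88, 2.71 and 2.96 in HF_Sugar. Il1b, the cytokine interleukin-1β, rose with sugar on high fat, by 1.32 ± 0.14 (adjusted p = 0.0362 in limma), where it was the single gene called, and differed by -0.05 on normal fat, with a difference between the diets of 1.37 ± 0.20 (unadjusted p = 3.28e-05, adjusted p = 0.579). The reads recovered for it were 141.46 in HF_Sugar 2, which is not a whole number within 0.1. They were 123.92 in HF_Sugar 1, 92.05 in HF_Sugar 3, and whole numbers between 12 and 38 in the other 9 libraries. On the recovered reads limma-voom called 0 genes on high fat, with 740 at an unadjusted p under 0.05. The limma count on high fat was also 0 when any 1 mouse was left out, except NF_Sugar replicate 1 or NF_Sugar replicate 3. Gcg, the glucagon and GLP-1 precursor, differed by 0.18 ± 0.15 (unadjusted p = 0.243) with HF_Sugar 2 not a whole number of reads, and Mtor stood between 1.63 and 2.43 RPKM with a difference of 0.01 ± 0.06.

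No gene passed the adjusted threshold for a difference between the 2 diets in the response to sugar (limma, 0%, with 459 genes, 2.6%, at an unadjusted p under 0.05, and 0 with 407 in limma-voom). Ifng and Cd40, higher with sugar on high fat alone, at 0.62 and 0.66 against -0.03 and -0.08, had values in HF_Sugar that were not whole reads. Slc6a4 stood at 9.65, 8.14 and 10.3 RPKM in NF, 9.6, 8.56 and 10.9 in NF_Sugar, 13.7, 13 and 14 in HF and 7.92, 6.52 and 8.97 in HF_Sugar. The serotonin transporter Slc6a4 was lower in all 3 HF_Sugar than in all 3 HF libraries and overlapped on normal fat, with 0.03 and -0.73 (unadjusted p of the difference 0.00102), and the HF mice on water were above all 9 other mice. Isoc2b, an isochorismatase domain protein, went the same way, at 0.02 and -0.53 (unadjusted p of the difference 0.00226). Mir6357 stood at 1.12 to 1.82 RPKM in HF and at 0.688 RPKM in NF_Sugar 3 and near 0 elsewhere, a pattern in a microRNA gene that lies inside Poli and whose reads could be divided between both.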

How the data were processed

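Ileal RNA of 12 mice was sequenced after ribosomal RNA depletion, and per the study's methods the authors used Partek Flow to align them to mm10 by STAR, counted Ensembl transcripts and tested them with DESeq2. The deposited values are RPKM, and 12 of 12 per-sample files equalled their column of the deposited table. As the values are RPKM, count models were not run, although the design written earlier allowed for counts. Of 44231 names 26 bare numbers (at most 0.135% of RPKM) were left out, leaving 44205 genes, of which 40519 matched the GENCODE vM21 annotation of GRCm38 by symbol, the source of positions.

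Libraries were brought to a common scale by TMM factors, with trims of 30% on ratios and 5% on means. The model of drink plus diet fat was fitted to log2(RPKM + 1) by limma 3.58.1 under R 4.3.3, with an intensity trend, for genes that reached 0.5 RPKM in 3 or more libraries. Benjamini-Hochberg adjusted p under 0.05 called a gene. Per-diet differences and the difference between diets came from a fit of 4 group means. Single genes were also compared by two-sided exact permutation within diets. Low values in RPKM are small whole numbers of reads, and 88.7% to 90.8% of them were whole within 0.03, which gave depth and recovered reads, and a value off by over 0.1 read counted as not whole. Alternatives changed scaling, filter, pseudocount, model, genes and libraries, and the fit was tested on simulated data.

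The comparison and the gene lists were chosen with earlier results of these data known. The naming rule took every tested member of the 3 sugar lists (except an item not reported here), the 8 smallest p in each direction among genes of at least 1 RPKM on average with the same sign in both diets, the 2 smallest p of each other list, the 3 smallest p in each direction for the difference between diets, and 5 genes of the study's text. Deviations of same-numbered libraries correlated by -0.42 to 0.26 between NF and NF_Sugar and by 0.13 to 0.56 between HF and HF_Sugar, so equal replicate numbers were not taken to pair the libraries over both diets, and the fit with a replicate block is given as an alternative.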

Additional observations from a re-analysis of the deposited data

How the results depend on the processing

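The count of genes past the adjusted threshold over both diets was 0 in limma in all 12 fits that left out 1 mouse and in 14 other settings, while the count at an unadjusted p under 0.05 (693 as reported) ran from 365 without HF replicate 1 to 1230 without NF replicate 2, was 290 of 7098 genes with a mean of at least 5 RPKM, 667 (337 higher) without scaling, 710 (297 higher) with median-of-ratios scaling and 1652 without the 4 libraries that stand apart. Of these counts, those without NF replicate 2 and without the libraries that stand apart are above a share of 0.05 of 17662 genes. So are 1098 without HF replicate 2, 1024 without NF_Sugar replicate 1 and 985 with a covariate for the libraries that stand apart. On normal fat the adjusted count was 0 to 1 over the fits that left out a mouse (1 without NF replicate 1 and 1 without HF replicate 1) and 4 with no filter on low values. On high fat the count of 1, which was Il1b, became 0 with no filter, with a pseudocount of 0.1, with limma-voom and with the 2 groups alone. It also became 0 with a covariate for the libraries that stand apart. When any 1 mouse was left out the count was 0, except for NF_Sugar replicate 1 (count 1) and NF_Sugar replicate 3 (count 2). The cause was not tested. The count was 0 too with a mean of at least 5 RPKM and without genes with irregular values. Both of these settings leave out Il1b itself, which did not pass 2.96 RPKM, so they cannot test its call. The count for the difference between diets was 0 to 1 over those fits (1 without HF replicate 1), and for dietary fat 0 throughout. With protein-coding genes alone, chosen after seeing the data, 646 of 12154 genes had an unadjusted p under 0.05 over both diets and 0 passed the adjusted threshold. The share of 646 in 12154 is also above 0.05.

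With the replicate number as a block, 0 genes passed over both diets and 759 had an unadjusted p under 0.05 (340 higher), 0 passed on normal fat and 1 on high fat, so the block changed no call. Deviations of all 3 same-numbered pairs correlated above 0.1 between HF and HF_Sugar and between NF and HF_Sugar (0.19 to 0.51), and in the other pairs of groups at least 1 did not.

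Of 150 named genes, 15 changed sign in 53 of 3679 recomputed values, none with a reported difference above 0.12 in size, and no named gene passed the adjusted threshold over both diets in any setting (smallest adjusted p 0.0546). Leaving out single mice, the differences ranged from -0.10 to 0.10 for Glyctk, -0.09 to 0.08 for Mgam, -0.19 to 0.00 for Mlx, -0.09 to 0.15 for Mlxipl, -0.01 to 0.04 for Mtor, -0.30 to 0.20 for Reg3a, -0.10 to 0.09 for Sis, -0.02 to 0.20 for Slc10a2, -0.12 to 0.01 for Slc2a1, -0.25 to 0.08 for Slc2a5, -0.14 to 0.03 for Slc5a1, -0.01 to 0.19 for Slc5a9, -0.12 to 0.30 for Thrsp, -0.04 to 0.25 for Tkfc and -0.10 to 0.04 for Txnip. Without the libraries that stand apart the sign turned for Mlxipl (-0.04), Mtor (0.00), Reg3a (0.07), Slc10a2 (-0.05), Slc2a1 (0.05), Thrsp (-0.16), Tkfc (-0.10) and Txnip (0.05), for Glyctk with median-of-ratios scaling (0.00) and limma-voom (-0.01), and for Sis without scaling (0.00). Of 998 recomputed list medians 6 moved beyond their spread: cytokines and chemokines to -0.19 and circadian clock to -0.47 with a mean of at least 5 RPKM, circadian clock to -0.28 without the libraries that stand apart and to -0.28 with limma-voom, endothelium to 0.15 with limma-voom, and the carbohydrate-response list to -0.03 without NF replicate 2. Low values limit genes under 1 RPKM, such as Ciart and Ccl12.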

Other observations

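Ighv1-11 stood at 0.0731, 0.104 and 0.118 RPKM in NF, 3.83, 12.7 and 0.933 in NF_Sugar, 0.238, 0 and 0.282 in HF and 5.31, 0.312 and 0.525 in HF_Sugar. This immunoglobulin heavy chain segment, which single B cell clones can use, was higher in all 6 sugar libraries than in all 6 water libraries. The difference was 1.60 ± 0.50 (unadjusted p = 0.00756, adjusted p = 0.998 in limma), with the highest values in NF_Sugar 2 and HF_Sugar 1. The exact permutation p of 0.005 follows from the lack of overlap and adds nothing to it. The segment was named after its values were seen. The inhibitory Fc receptor of B cells and macrophages, Fcgr2b, had values from 0.434 to 0.672 RPKM with water and from 0.588 to 1.17 RPKM with sugar and differed by 0.29 ± 0.07 (unadjusted p = 0.00151), and Cxcr5, which brings B cells to follicles, differed by 0.35 ± 0.16 (unadjusted p = 0.0465). The B and plasma cell list as a whole had a median difference of 0.12, with 17 of 19 genes higher and 1 with an unadjusted p under 0.05.

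Among the 17662 genes tested, groups of 3 libraries as deposited did not overlap and pointed opposite ways on the 2 diets in a small part. These were 15 genes higher with sugar on normal fat and lower on high fat, and 24 the reverse. The difference between the diets was not called in any of them. After scaling, groups without overlap pointed the same way on both diets in 22 genes for higher (0.125%) and 33 for lower (0.187%). Among the 14 genes lower in all 6 sugar libraries were As3mt at -0.27 ± 0.08, Sphk2 at -0.29 ± 0.09 and Pmaip1 at -0.34 ± 0.11, with the same sign on both diets. They were named after their values were seen.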
